A study of Mus musculus with 6 samples.

Results

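The vascular connexins are 5 genes, Gja1, Gja4, Gja5, Gjc1 and Gjb2, chosen by name from the gap junction family. They were read from 11 array probe sets whose annotation names 1 of these genes alone. Of 18193 genes with such a probe set on the array, 12279 passed a filter on low signals and were tested, among them 2 of the 5 connexins, Gja1 and Gjc1. Each gene was represented by its brightest probe set over all 6 arrays, and its other probe sets served as a check.

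Total RNA was taken from cultured lung endothelial cells of mice and hybridised to 6 expression arrays, 1 per sample. The 3 knockout samples lack HIF-2α, the oxygen-sensitive transcription factor encoded by Epas1. They were derived from mice whose Hif-2a alleles are both floxed and cut by a Cre recombinase under the VE-Cadherin promoter, which is active in endothelium. The 3 control samples are described differently in different labels. The sample descriptions give VE-Cadherin-Cre with 1 floxed and 1 wild-type allele, the series design gives Hif-2a floxed/floxed, and the genotype field gives wild type. All 6 samples were kept at 0.5% oxygen for 16 h, so no comparison with normal oxygen can be made. Strain, age and the number of animals behind each array are not given in the sources used here, so each p-value reflects array-to-array spread alone, which may be technical. In RNA from many cells, fewer cells of a type and less RNA per cell cannot be told apart.

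Connexins are membrane proteins that assemble into hexameric hemichannels, which dock between neighbouring cells to form gap junctions and let ions and small metabolites pass. In vessels they carry electrical and calcium signals along the endothelium and between endothelium and smooth muscle. In mice, arterial endothelium is known for the products of Gja4 (Cx37) and Gja5 (Cx40), while Gja1 (Cx43) is found in endothelium at branch points, in smooth muscle and in many cultured cells. Gjc1 (Cx45) is expressed in the early embryonic vessel wall and in vascular smooth muscle, and Gjb2 (Cx26) is mainly an epithelial connexin.

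The HIF factors bind a short core of DNA letters, and AP-1, the dimer of Jun and Fos proteins, is a known activator of Gja1. The 250 bases before the annotated start were therefore searched in 4 of the 5 genes, with RefSeq sequence of build GRCm38.p6, on both strands. The matches found do not overlap. The promoter sequences used here held no entry for Gjc1, so its window was not searched. The HIF core was spelled ACGTG or GCGTG, and the AP-1 site TGACTCA, whose reverse complement is TGAGTCA. Among 32851 windows of that length, 16.6% hold ACGTG, 28.2% GCGTG and 4.46% TGACTCA. Gja1 holds GCGTG once, on the other strand from 97 bases before its start, and the AP-1 letters once, from 19 bases before. These letters were in none of the other windows, a description of the windows and not of binding. Among the 4 genes searched, Gja1 is shown as the connexin with signal on every array, at chr10:56377050-56377299 on the plus strand. Gja5 is shown as an arterial connexin at the floor, at chr3:97032152-97032401 on the plus strand. Both run 5′ to 3′ with the motif letters in capitals.
Gja1: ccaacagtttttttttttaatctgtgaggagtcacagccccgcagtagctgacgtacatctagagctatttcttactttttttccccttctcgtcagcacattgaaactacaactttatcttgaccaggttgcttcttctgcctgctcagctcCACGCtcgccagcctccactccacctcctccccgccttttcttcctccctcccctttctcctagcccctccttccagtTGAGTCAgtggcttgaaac
Gja5: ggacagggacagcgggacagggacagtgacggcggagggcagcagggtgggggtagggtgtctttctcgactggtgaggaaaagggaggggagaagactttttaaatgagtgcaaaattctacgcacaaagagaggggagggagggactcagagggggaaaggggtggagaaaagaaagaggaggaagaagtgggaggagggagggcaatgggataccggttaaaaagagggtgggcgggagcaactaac

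Across all genes tested, 1684 passed the threshold of an adjusted p of 0.05, which is 13.7%, with 1061 genes higher (8.64%) and 623 genes lower (5.07%) on the knockout side. Of the 5 connexins, 1 was higher and 0 were lower. The targeted gene, Epas1, gave 8920, 9397 and 9859 intensity units on the knockout arrays, against 9611, 9590 and 9444 on the control arrays, and the 2 groups overlapped. A dim second Epas1 probe set read 21.7, 18.0 and 11.5 on the knockout arrays, against 11.4, 10.3 and 11.4 on the control arrays, near the floor and just without overlap. The deleted exons are not named in the labels and the probes were not placed against them, so these signals do not check the genotype, which rests on the labels. Endothelial markers as a list had signal on every array, though Vwf and Cldn5 were dim. Vwf averaged 40.8 in knockout and 49.3 in control arrays. Cldn5 averaged 25.5 and 56.0, and at 15.2 was under 16 in knockout 3. All 13 measured, including Emcn and Egfl7, were above a signal of 16 on at least 1 array, and their summed signals ran from 131645 to 146949 in knockout and from 155949 to 168948 in control arrays. Of these markers 4 fell in the knockout arrays, with log2 differences of -0.34 for Pecam1, -1.24 for Tek, -0.65 for Tie1 and -0.67 for Erg. Their part in the connexin results was not tested. Of all pairs of arrays, controls 1 and 3 differed least, with an SD of the log2 difference over genes of 0.14 against 0.31 to 0.92 for the others. Results for connexins are therefore also given with controls 1 and 3 averaged into 1 sample.

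Gjc1 was the connexin that differed between the groups, and it was higher in every knockout array than in any control array. Its brighter probe set read 1193, 1260 and 1054 intensity units in knockouts 1 to 3, against 316, 369 and 337 in controls 1 to 3. The lowest knockout array lay far above the highest control array. The mean was 1169 ± 105 in knockout and 341 ± 26.6 in control arrays (SD, n = 3 each), a ratio of 3.43. On the log2(signal + 16) scale Gjc1 rose by 1.73 ± 0.09 (SE), with a 95% interval from 1.49 to 1.97 (limma, adjusted p = 0.00293). Groups without overlap occurred in 36.2% of all genes tested, so separation by itself is common on these arrays. A rise of this size or more among genes past the threshold occurred in 73 of 12279 genes (0.595%).

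**Figure D1:**
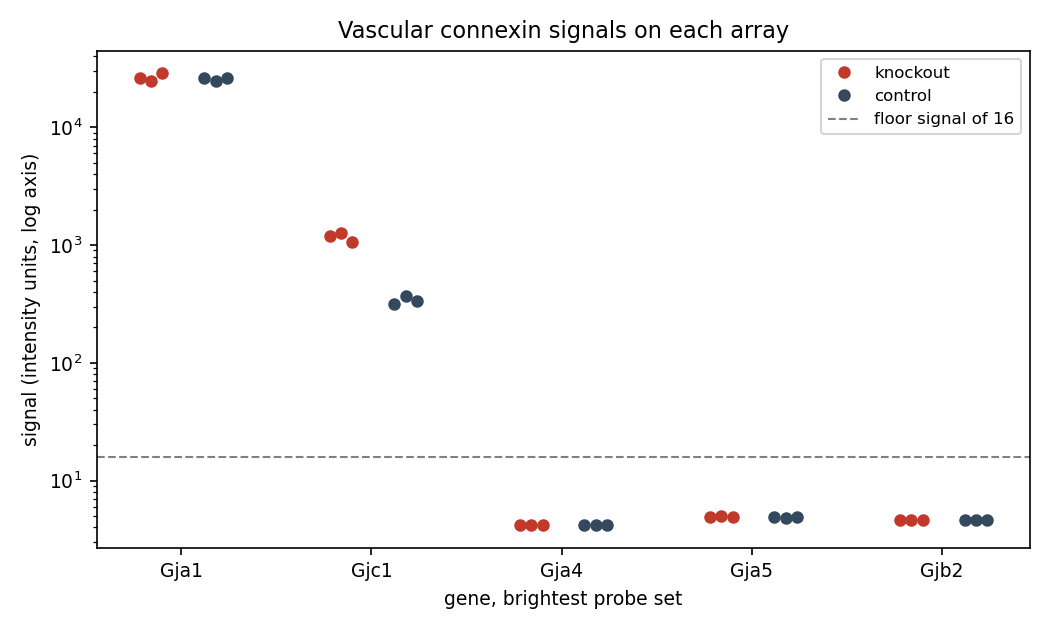
Signal of the brightest probe set of each vascular connexin on each of the 6 arrays, on a log axis in intensity units, with 3 knockout (red) and 3 control (dark) arrays per gene and a dashed line at 16. Gjc1 lies between 1054 and 1260 in knockout and between 316 and 369 in control arrays, Gja1 overlaps between the groups, and Gja4, Gja5 and Gjb2 lie under the line on every array.

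The second Gjc1 probe set gave the same direction. It read 236, 227 and 158 intensity units in knockouts 1 to 3, against 22.4, 35.6 and 25.0 in controls 1 to 3. All 3 knockout arrays again lay above all 3 control arrays, and the control arrays lay close to the signal of 16 taken as the floor. This probe set rose by 2.34 ± 0.20 on the log2 scale, with means of 207 ± 42.6 in knockout and 27.7 ± 6.98 in control arrays (SD, n = 3 each). Tested one by one over 27022 probe sets, of which 7.65% passed, the brighter Gjc1 probe set had an adjusted p of 0.00464 and the dimmer one an adjusted p of 0.0119 (limma). Both Gjc1 probe sets therefore passed at the level of single probe sets. The dimmer one carries the suffix _x_at, which Affymetrix gives to sets with probes that may also match other transcripts.

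**Figure D2:**
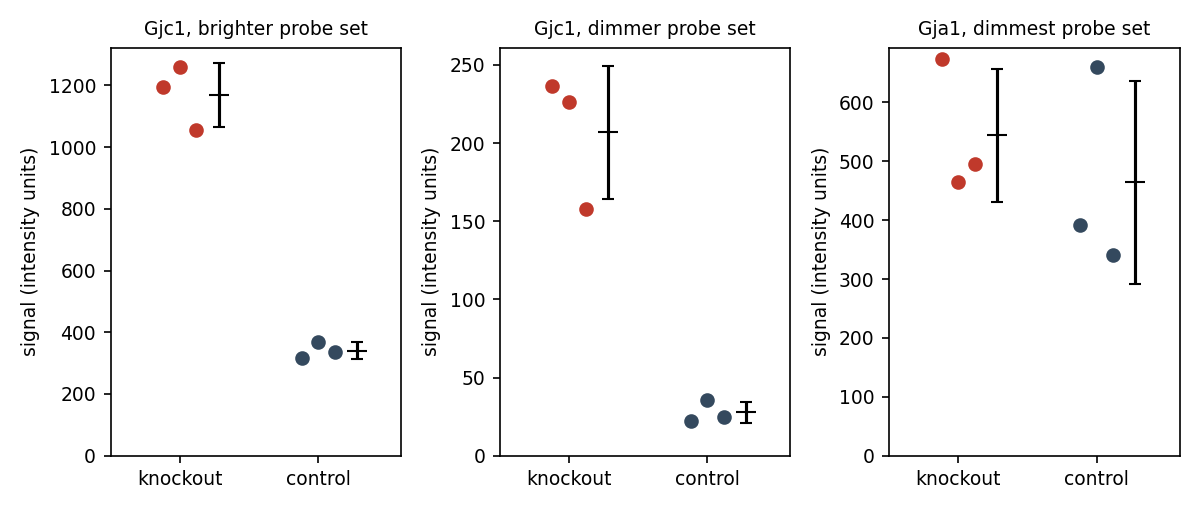
Signal in intensity units on linear axes from 0 for both Gjc1 probe sets and the dimmest Gja1 probe set, with points for single arrays and black marks for mean ± SD of 3 arrays. Knockout and control arrays separate for both Gjc1 probe sets, with means of 1169 and 341 in the brighter one, and overlap for the Gja1 probe set.

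The rise of Gjc1 did not rest on a single array. Leaving out each array in turn gave log2 differences of 1.68 to 1.80, with limma adjusted p-values of 0.00549 to 0.0268. With controls 1 and 3 averaged the difference was 1.70 (limma adjusted p = 0.0279), and without control 2 and knockout 3 it was 1.86 (limma adjusted p = 0.00868). The bacterial spike-in controls bioB and bioC measure hybridisation and scanning, and not the labelling of the samples. They were at 11.03, 11.08 and 10.86 on the log2 scale in knockouts 1 to 3, against 10.66, 10.88 and 10.78 in controls 1 to 3. Spike-in levels were thus higher in most knockout arrays, with an overlap between knockout 3 and control 2. With that level as a covariate, Gjc1 rose by 1.51 ± 0.03 (limma adjusted p = 0.00446). It passed the threshold in all 20 other settings tried.

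**Figure D3:**
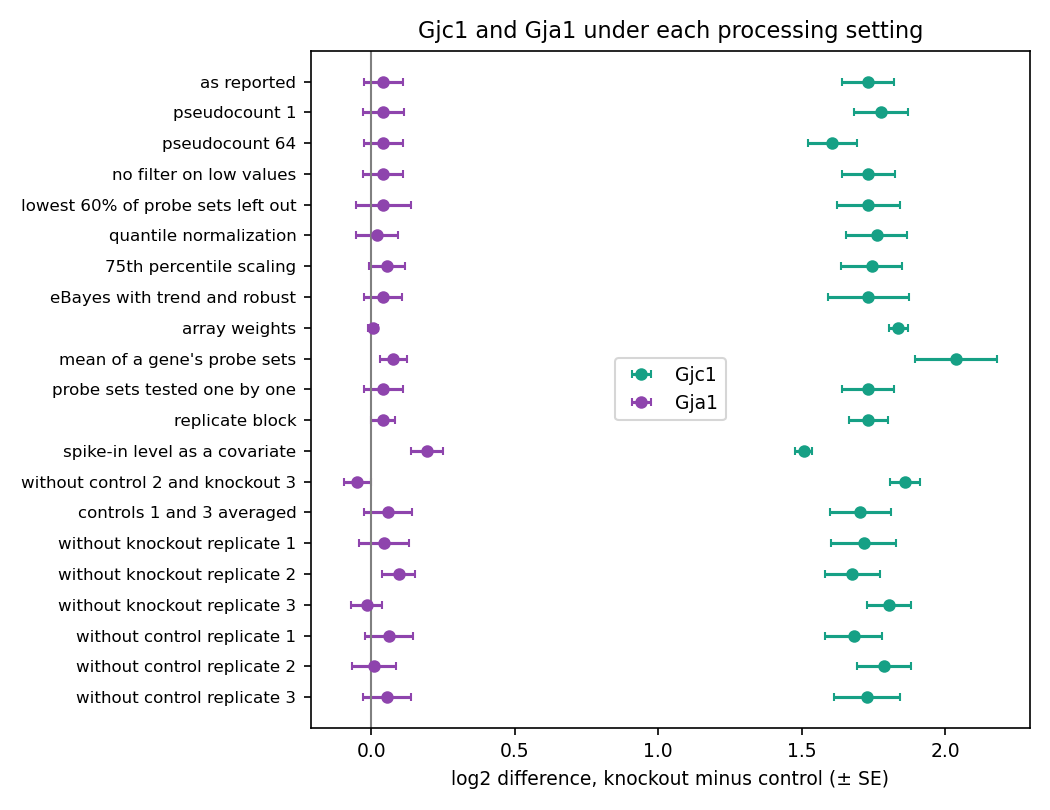
Log2 difference, knockout minus control, ± SE for Gjc1 (green) and Gja1 (purple) under the reported setting (top) and 20 others (down the axis). Gjc1 lies between 1.51 and 2.04 in the other settings, whereas Gja1 lies between -0.048 and 0.19 and crosses 0.

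Markers of smooth muscle, a cell type known for Gjc1, were at the floor with the exception of Tagln. Of 8 smooth muscle and pericyte markers, Tagln, an actin-binding protein, was the 1 above a signal of 16 on any array. Acta2, Myh11, Cnn1, Des, Pdgfrb, Cspg4 and Rgs5 were below 16 on all 6 arrays. The summed signal of this list ran from 104 to 242 in knockout and from 66.5 to 109 in control arrays. Tagln itself averaged 148 ± 70.5 in knockout and 50.3 ± 22.1 in control arrays (SD, n = 3 each) and did not pass (limma adjusted p = 0.144). All 7 fibroblast markers, among them Col1a1 and Pdgfra, were below 16 on every array. All 10 epithelial markers, among them Sftpc and Krt5, were too. Of 7 leukocyte markers, Cd68, a lysosomal protein abundant in macrophages, and Cd14, a receptor for bacterial lipopolysaccharide, had signal, and both fell (limma adjusted p = 0.00769 and 0.0162). Ptprc, Itgam, Lyz2, Cd3e and Cd79a were at the floor. The leukocyte list summed to between 802 and 1190 in knockout and between 3842 and 4505 in control arrays, so it moved opposite to Gjc1, and its part in the Gjc1 result was not tested.

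Gja1, the most widely expressed connexin, gave strong signal on every array and no difference past the threshold. Its brightest probe set read 26385, 24591 and 28737 intensity units in knockouts 1 to 3, against 26439, 24631 and 26230 in controls 1 to 3. The knockout arrays spanned the whole range of the control arrays. The means were 26571 ± 2080 in knockout and 25766 ± 989 in control arrays (SD, n = 3 each). The log2 difference was 0.04 ± 0.07 (SE), with a 95% interval from -0.14 to 0.22 (limma adjusted p = 0.747). A change of the size seen for Gjc1 lies outside that interval.

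Gja1 has 6 probe sets, and 5 of them had a signal of at least 6568 on all arrays. The brightest and 3 others of these 5 carry the suffix _x_at. In these 5, the log2 differences were between 0.02 and 0.06, and each 95% interval included 0. The dimmest Gja1 probe set read 674, 464 and 496 intensity units in knockouts 1 to 3, against 391, 660 and 341 in controls 1 to 3. Control 2 was high within its group and knockout 1 within its own, and the groups overlapped. Its log2 difference of 0.26 had a 95% interval from -0.53 to 1.06, so it is far less precise than the bright ones. Of the 6 Gja1 probe sets, 0 passed limma over probe sets, and 0 had an unadjusted p under 0.05.

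**Figure D4:**
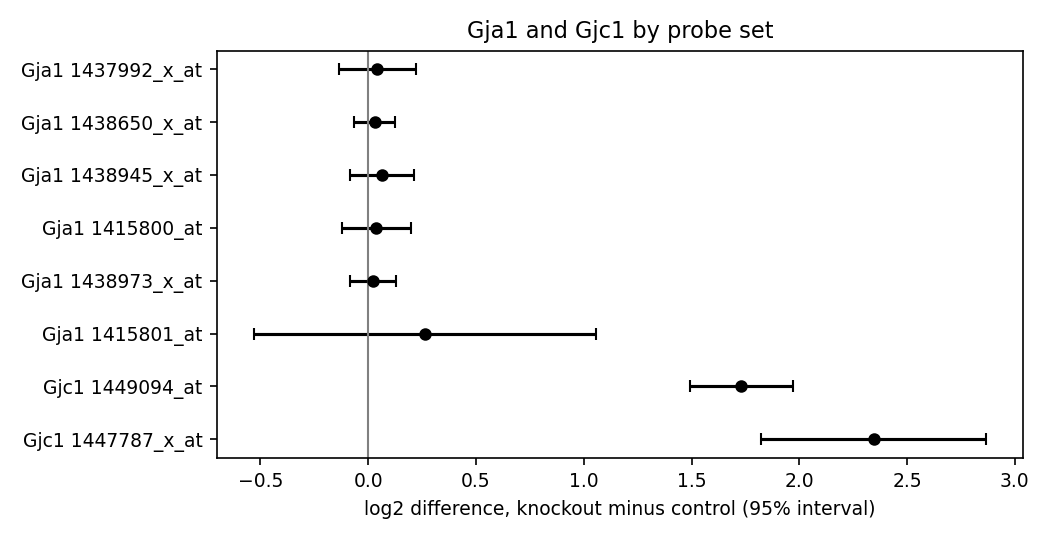
Log2 difference, knockout minus control, with 95% intervals from limma for each of the 6 Gja1 and both Gjc1 probe sets that passed the filter, with Affymetrix probe set names down the axis. The intervals of both Gjc1 probe sets start above 1.49, and all 6 Gja1 intervals include 0.

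The arterial connexins Gja4 and Gja5 and the epithelial connexin Gjb2 were at the floor in both groups. Gja4 read 4.192, 4.208 and 4.190 intensity units in knockouts 1 to 3, against 4.184, 4.178 and 4.201 in controls 1 to 3. Gja5 read 4.92, 5.05 and 4.87 in knockouts, against 4.87, 4.86 and 4.90 in controls, and Gjb2 read 4.61, 4.64 and 4.60 in knockouts, against 4.59, 4.59 and 4.62 in controls. Within each of these genes the groups overlapped and differed by less than 0.2 intensity units on average. Each has 1 probe set, which did not pass the filter on low signals, so none was tested in the reported setting. Without the filter their adjusted p-values were 0.784 for Gja4, 0.539 for Gja5 and 0.661 for Gjb2 (limma). On this array, 48.9% of probe sets that name 1 gene lie under a signal of 16 on all 6 arrays. Values of this kind are set by the background correction, so they give an upper limit on the signal and no ratio between the groups.

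The other members of the family that were analysed were at the floor as well. A further 12 connexin and pannexin genes were analysed. Pannexins form single-membrane channels that release ATP and are not part of gap junctions in most cells. The 18 probe sets of these 12 genes read between 4.07 and 5.50 intensity units on every array. Gja3, Gjb6, Gjc3, Gje1 and Panx2 passed the filter although at the floor, and the brightest of those that did not pass it were Gjb1 and Gjd4, at 4.75 and 4.67 in knockout and 4.72 and 4.65 in control arrays on average. None of the 5 tested genes passed, and 0 had an unadjusted p under 0.05 (limma). Gje1, the highest, averaged 5.42 ± 0.07 in knockout and 5.34 ± 0.05 in control arrays (SD, n = 3 each). Above the floor, connexin signal in these cells thus came from the probe sets of Gja1 and Gjc1.

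Proteins that bind connexins or govern their traffic and turnover went both ways. Of 21 such genes, 20 were tested, 2 rose, 2 fell and 16 did not pass, beside 8.64% higher and 5.07% lower among all genes tested. The median log2 difference was -0.09, against 0.0071 over all genes. Ezr encodes ezrin, which links membrane proteins to actin and anchors protein kinase A near Cx43, and it averaged 6538 ± 708 in knockout and 3830 ± 295 in control arrays (SD, n = 3 each). It rose by 0.77 ± 0.11 on the log2 scale (limma adjusted p = 0.0194). Cnst encodes consortin, a receptor that targets connexins from the trans-Golgi network to the plasma membrane, and it rose by 0.35 ± 0.06 (limma adjusted p = 0.0329). Ccn3, a secreted protein that binds the tail of Cx43, fell by 0.48 ± 0.10 (limma adjusted p = 0.0468), a call lost in 10 of 20 other settings. Ctnnd1, the p120 catenin of adherens junctions, fell by 0.21 ± 0.05 at the threshold itself (limma adjusted p = 0.04996), a call that was lost in 19 of 20 other settings.

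Among kinases and phosphatases that act on Cx43, 14 of 16 listed genes were tested, of which 1 rose, 2 fell and 11 did not pass, beside 13.7% called among all genes tested. The median log2 difference was 0.09, against 0.0071 over all genes. Prkce, a protein kinase C that phosphorylates Cx43, averaged 1538 ± 24.8 in knockout and 1836 ± 31.7 in control arrays (SD, n = 3 each). It fell by 0.25 ± 0.02 on the log2 scale (limma adjusted p = 0.00882). Ptprm, a receptor phosphatase that binds Cx43, fell by 0.34 ± 0.06 (limma adjusted p = 0.0328), a call lost in 10 of 20 other settings. Cdk1, the mitotic kinase that phosphorylates Cx43 during division, rose by 0.38 ± 0.08 (limma adjusted p = 0.0439), a call lost in 13 of 20 other settings, among them the replicate block (limma adjusted p = 0.0545).

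Of 20 transcription factors and Notch receptors linked to vascular connexin genes, 14 were tested, 0 rose, 2 fell and 12 did not pass, a share called near the 13.7% of all genes tested. The median log2 difference was -0.12, against 0.0071 over all genes. Klf4, a flow-responsive endothelial factor, averaged 942 ± 115 in knockout and 2108 ± 218 in control arrays (SD, n = 3 each). It fell by 1.15 ± 0.12 on the log2 scale (limma adjusted p = 0.0127). Jun, a subunit of AP-1, fell by 0.38 ± 0.08 (limma adjusted p = 0.0466), a call lost in 13 of 20 other settings. Fos, its partner in AP-1, had a log2 difference of 0.05 ± 0.32 and did not pass (limma adjusted p = 0.923). The AP-1 letters stand before the Gja1 start shown above, and Gja1 did not pass. A link between these values was not tested. Sox17, Hey1, Tbx2, Tbx3, Tbx5 and Nkx2-5 were at the floor, as were Hey2 and Prox1. Genes of arterial endothelium, the class in which Gja4 and Gja5 are known, included 3 that fell among 8 tested of 12, and 0 that rose, beside 5.07% lower and 8.64% higher among all genes tested. Their median log2 difference was -0.12. Dll4, a Notch ligand of arteries and sprouting tips, averaged 385 ± 84.7 in knockout and 887 ± 145 in control arrays (SD, n = 3 each). It fell by 1.18 ± 0.21 on the log2 scale (limma adjusted p = 0.0329). The guidance receptor Unc5b fell by 1.17 ± 0.18 (limma adjusted p = 0.0242) and the arterial ephrin Efnb2 by 0.55 ± 0.07 (limma adjusted p = 0.0175). Several factors are on both lists, Sox17, Hey1, Hey2, Notch1 and Notch4 among them.

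**Figure D5:**
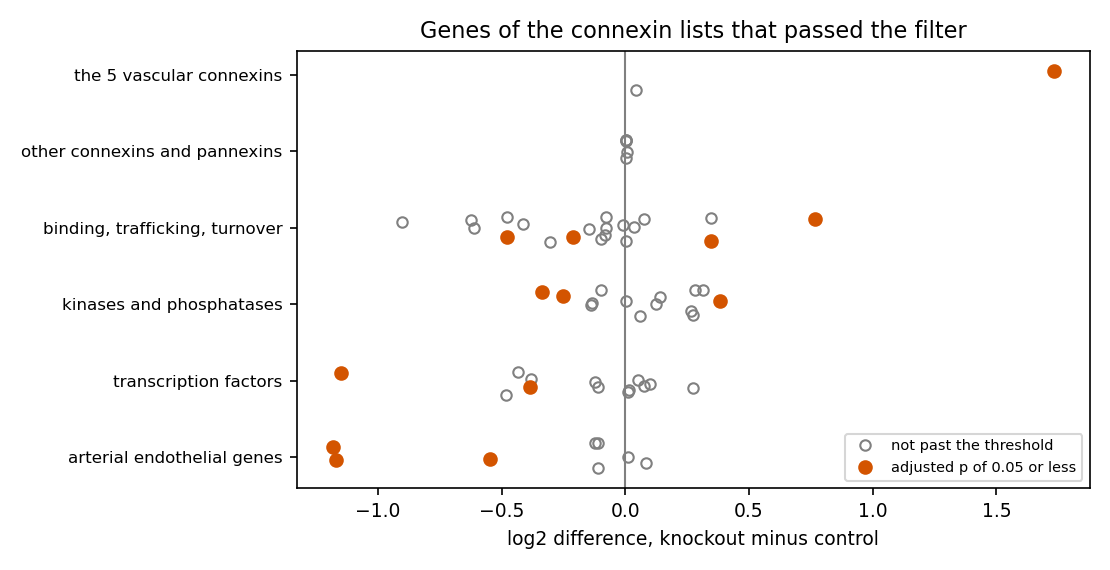
Log2 difference, knockout minus control, of each gene that passed the filter in the lists of connexins and their partners, with filled points for an adjusted p of 0.05 or less. Gjc1, at 1.73, lies further right than any gene of the other lists, which lie between -1.18 and 0.77.

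None of the 12 genes called in these lists changed direction in any of the 20 other settings. Their log2 differences stayed of like size when each array was left out, between -1.23 and -1.05 for Klf4 and between 0.71 and 0.86 for Ezr. Many calls were lost, as over all genes. Of the 20 settings, the call was lost in 19 for Ctnnd1, 13 each for Cdk1 and Jun, and 10 each for Ccn3 and Ptprm. It was lost in 8 each for Cnst and Prkce, 7 each for Dll4 and Efnb2, 5 each for Ezr and Unc5b, and 3 for Klf4. Of the 12, 0 kept the call without control 1, 3 without control 2 and 0 without control 3. Without knockout 1, 2 or 3 the numbers were 1, 7 and 9. With controls 1 and 3 averaged the number was 0.

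The genes whose pattern over the 6 arrays was most like each tested connexin were found by Pearson's correlation of log2(signal + 16). Candidates were genes whose SD over the 6 arrays was at least 50% of the connexin's own. For Gjc1, the 3 highest of 2416 candidates were Ddx31, a DEAD-box RNA helicase (r = 0.999), Shmt1, the cytosolic serine hydroxymethyltransferase (r = 0.999), and Cd276, an immune ligand of the B7 family (r = 0.998). Shmt1 read 1249, 1234 and 1110 intensity units in knockouts 1 to 3, against 544, 582 and 578 in controls 1 to 3. Since Gjc1 separates the groups, so does each gene this like it, and 639 candidates had an r above 0.9. For Gja1, the 3 highest of 10109 candidates were the RNA-binding protein gene Hnrnpa2b1 (r = 0.998), Ercc6l, a helicase of dividing chromosomes (r = 0.996), and Rab27b, a GTPase of secretory vesicles (r = 0.996). Their common pattern was a high knockout 3 and low knockout 2 and control 2, as in Gja1 itself, where Hnrnpa2b1 read 13303, 11983 and 15041 in knockouts 1 to 3, against 13227, 11816 and 13085 in controls 1 to 3. That pattern runs within the groups and not between them. With 6 arrays and this many candidates, these values are a description of the arrays.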

How the data were processed

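RNA from 3 knockout and 3 control samples was measured on Affymetrix arrays, 1 per sample. The table the authors deposited holds linear intensities, 1 per probe set and array. MAS5 and GCRMA were used, per the submitters' processing notes, which give neither their versions nor which step each served. Quantiles were nearly equal between arrays, so no further normalization was applied. Of 45101 probe sets, 64 were controls, 932 named several genes and 9160 were unlisted in the platform annotation.

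Values were taken as log2(intensity + 16), which understates changes of dim genes. A filter removed the dimmest 40% of probe sets by mean log2 value, and the brightest probe set stood for each of 12279 genes. Groups from the labels were compared with limma 3.58.1 (R 4.3.3; lmFit and eBayes, two-sided, Benjamini-Hochberg over all genes, threshold 0.05). A signal under 16 was taken as the floor. Likeness, motifs and figures used R, pandas 2.3.3 and matplotlib 3.10.9.

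The test was checked on simulated data with 12279 genes. Changes of 0.5, 1, 2 and 3 on the log2 scale (50 genes each) were recovered in 26%, 54%, 86% and 94% of cases, with 11 false among 141 calls. The simulated noise was independent between genes and arrays, whereas deviations on the real arrays were shared. Changed genes were drawn from all genes tested, floor genes included. These shares therefore check the code and are not error rates for the real arrays. Precision is limited by having 3 arrays per group.

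The members and lists were chosen with earlier results of these data known. Named genes were the members, family genes that passed the filter and the 2 brightest that did not, up to 4 called genes per list with the smallest p, the 2 brightest of each marker list, the 3 genes most like each tested member and Epas1. Further floor markers are named as examples, and Fos as the partner of Jun. Alternatives were other pseudocounts, filters, scalings, eBayes settings, array weights, probe set summaries, the replicate number as a block, a spike-in covariate, leaving out arrays and averaging controls 1 and 3.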

Additional observations from a re-analysis of the deposited data

How the results depend on the processing

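Gjc1 kept its direction and its call in all 20 other settings, with log2 differences of 1.51 to 2.04. Its limma adjusted p was 1.81e-05 with array weights and ran from 0.00134 to 0.0279 in the other settings. In each setting 1 of the 5 connexins was called. Gja1 was called in 0 of 20 (lowest limma adjusted p = 0.152). Its difference turned to -0.048 without control 2 and knockout 3, and ran from -0.016 to 0.096 when each array was left out in turn, with the negative value without knockout 3. The floor members moved by more than their very small spread with a pseudocount of 1 (Gja4 0.0025, Gja5 0.018, Gjb2 0.0052) and with 75th percentile scaling (0.013, 0.018 and 0.014), and Gja5 with the spike-in covariate (0.00028), all on the log2 scale. The number of genes called over the whole array, 1684, was 893 with no filter, 8533 with array weights (whose estimate did not converge fully), 442 with the spike-in covariate, 4631 without control 2 and knockout 3, 193 with controls 1 and 3 averaged, and 206 to 3003 with each array left out. Of those counts, 312, 977 and 3003 came from leaving out knockouts 1, 2 and 3, and 206, 904 and 208 from leaving out controls 1, 2 and 3. The cause was not tested. With the replicate number as a block it was 2993, and Gjc1 had an adjusted p of 0.013 (limma). Deviations from the group means correlated at -0.46, 0.84 and 0.80 between same-numbered arrays 1, 2 and 3. Between differently numbered arrays they ran from -0.89 (knockout 3 with control 2) to 0.76 (knockout 3 with control 1). The labels do not state a pairing, so the numbers were not taken to pair the arrays. Among single genes not called in the reported setting, Hnrnpa2b1 turned to -0.19 with the mean of its probe sets, and Epas1 to 0.13. Without control 2 and knockout 3, Hnrnpa2b1, Ercc6l and Rab27b turned to -0.059, -0.29 and -0.29, and with each array left out their lowest values were -0.0077, -0.044 and -0.061, and their highest 0.16, 0.77 and 0.68. Epas1 turned to 0.028 with the spike-in covariate and ran from -0.061 to 0.012 with each array left out. Of the other results of single genes and lists, 432 kept their side in their settings, 108 lost a call, 64 counts moved by more than 1.5 times and 1, Epas1, gained a call (-0.10 with array weights, limma adjusted p = 0.00273). No other background correction was possible from the deposited values.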

Other observations

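The genes next to the tested connexins, in the order of genes of a RefSeq table (GRCm38.p6), were read after the result for Gjc1 was known. Of the 10 tested genes nearest to Gjc1, 5 on each side on chromosome 11, 1 passed the threshold (limma, 3 at an unadjusted p under 0.05). Among all genes tested, 13.7% passed. That gene was Kif18b, a kinesin of dividing cells, which rose by 1.16 ± 0.21 on the log2 scale (limma adjusted p = 0.0323). All 10 had a difference above 0, from 0.0090 to 1.16, with a median of 0.19 against 0.0071 over all genes. Those of 2810433D01Rik, Meioc and Fzd2 were smaller than their SE. The share of all genes with a difference above 0 was not counted, and an effect of the region was not tested. The nearest neighbours, Ccdc43 and Eftud2, had log2 differences of 0.10 ± 0.10 and 0.32 ± 0.09 and did not pass. Of the 10 tested genes nearest to Gja1 on chromosome 10, 0 passed (limma, 2 at an unadjusted p under 0.05), 6 had a difference above 0, and the median was 0.0028.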
